A study of Mus musculus with 15 samples.

Results

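The genes described here encode the proteins of the mitochondrial ribosome, measured by mRNA-Seq in the podocyte fraction of mouse kidney. They were taken as the protein-coding genes whose symbol starts with Mrpl (large subunit) or Mrps (small subunit) followed by a digit, which gave 78 of the 46078 genes in the count table. The podocyte fraction was isolated from kidney cortex of male C57BL/6J mice by magnetic sorting with an antibody to nephrin, a protein of the podocyte slit diaphragm. Young mice were 4 months old and were not injected. Aged mice were 21 months old and received 12 mg/kg of either anti-PD-1 antibody (aPD1ab), which blocks an inhibitory receptor best known from T cells, or the isotype control IgG2a, intraperitoneally each week for 8 weeks; the titles of the aPD1ab samples give 47 days instead. The labels list 5 mice per group. Columns of the table could be tied to a group for 5 young, 4 aged IgG2a and 4 aged aPD1ab libraries, numbered here as replicates in column order. Because young mice differ from both aged groups in age and in having had no injection, these differences cannot be told apart.

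The mitochondrial ribosome makes the 13 proteins encoded by mitochondrial DNA, all of them subunits of the respiratory chain and ATP synthase. Its proteins are encoded in the nucleus, made in the cytosol and imported, and they assemble on the 2 ribosomal RNAs that mitochondrial DNA encodes. Many of its proteins descend from bacterial ribosomal proteins, and the others were gained in the mitochondrial lineage and have no bacterial counterpart. The kidney is rich in mitochondria, most of all in the proximal tubule.

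By this division, 30 of the 78 genes belong to the large subunit and have a bacterial counterpart, and 21 belong to the large subunit and do not. The small subunit has 16 with a bacterial counterpart and 10 without. Mrps18a and Mrps30 were counted with the large subunit, where their proteins sit despite the name. The division follows nomenclature, so Mrps18a and Mrps18b count as genes without a counterpart, although both descend from a bacterial protein. Mrps36 was kept apart, because its product is now known as a subunit of the 2-oxoglutarate dehydrogenase complex.

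Libraries held between 19912969 and 32717100 counts, and counts on the 13 mitochondrially encoded mRNAs and the other mitochondrial transcripts took between 20.4% and 54.9% of a library. Levels are given as CPM, counts scaled to a common library size by TMM, a method that makes libraries comparable when a few genes take a large share. The podocyte fraction also held RNA of other cells. Nephrin mRNA (Nphs1) ranged from 43.2 to 81.4 CPM in young, from 4.15 to 19.4 in aged IgG2a and from 7.61 to 42.8 in aged aPD1ab libraries. The summed level of 12 proximal tubule markers ranged from 11391 to 17346 CPM in young and from 8382 to 23757 in aged aPD1ab libraries, and it was 8169 in aged IgG2a replicate 1 and 1577 to 2421 in the other 3 aged IgG2a libraries. In such bulk samples, fewer cells of a type and less RNA per cell cannot be told apart. Aged IgG2a replicate 1 stood apart from its group, so most results that rest on aged IgG2a libraries are given with and without it.

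All but 1 of the 78 genes were detected, and 77 passed the filter on low counts. The exception was Mrpl53, with 0 counts in all 13 libraries. In the GENCODE annotation 88.0% of its exon bases also belong to other genes, Ccdc142os and Gm42688. Mrps34, which encodes a small-subunit protein, had 749 counts over the 13 libraries and shared 77.8% of its exon bases with Mapk8ip3 and Nme3, so its level is uncertain. Per kilobase of exon, the mean levels over 13 libraries were highest for Mrps21 (44.1 CPM per kilobase), Mrpl34 (37.9), Mrpl54 (33.6) and Mrps6 (31.3). Mrps6 shared 19.9% of its exon bases, including some with Slc5a3. Apart from Mrpl53, the lowest were Mrps34 (1.08), Mrpl33 (1.85) and Mrps10 (1.96), again as CPM per kilobase.

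Summed over the 78 genes, the level was 1629, 1552, 1691, 1625 and 1636 CPM in the young libraries. It was 1982, 1381, 1355 and 1406 CPM in the aged IgG2a libraries, in the order of replicates 1 to 4, and 1998, 2628, 2234 and 2178 CPM in the aged aPD1ab libraries. On this TMM scale every aged aPD1ab library lay above every young and every aged IgG2a library, and replicate 1 of aged IgG2a came closest. The order depended on the scale. On CPM of plain library totals, aged IgG2a replicate 1 was at 2067, above aged aPD1ab replicate 3 at 1978. When mitochondrially encoded genes were left out of the totals, the order held, at 2924 in aged IgG2a replicate 1 and 2935 in aged aPD1ab replicate 1. The other 3 aged IgG2a libraries lay below every young library. Group means were 1627 ± 49.7 CPM in young (SD, n = 5), 1531 ± 301 in aged IgG2a (SD, n = 4) and 2260 ± 266 in aged aPD1ab mice (SD, n = 4). The 4 structural groups had the same order of libraries in outline, with 1 exception. For small-subunit genes with a bacterial counterpart, aged IgG2a replicate 1 (426 CPM) lay above aged aPD1ab replicate 1 (419 CPM). The large-subunit genes with a bacterial counterpart summed to 586 to 640 CPM in young and 748 to 1010 in aged aPD1ab libraries. The small-subunit genes without one summed to 149 to 169 and 207 to 248 CPM.

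**Figure D1:**
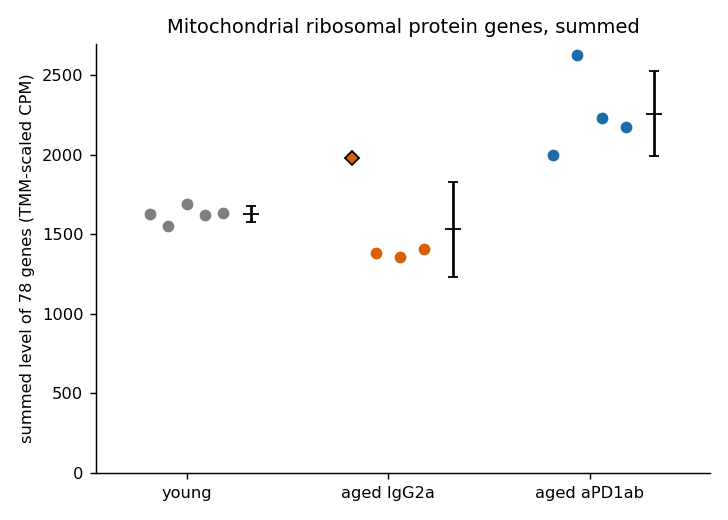
Summed level of the 78 mitochondrial ribosomal protein genes in each library, as TMM-scaled CPM (vertical axis), by group (horizontal axis). Each point is a library, the diamond is aged IgG2a replicate 1, and bars show mean and SD. The 4 aged aPD1ab libraries sit between 1998 and 2628 CPM, above all others.

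The comparison of aged aPD1ab (n = 4) with young mice (n = 5) used no aged IgG2a library. All 77 genes tested were higher with aPD1ab, with a median log2 fold change of 0.47, where the median of all 15986 genes tested was 0.017. Of the 77, 56 passed the test in the higher direction and 0 in the lower (edgeR's quasi-likelihood test, Benjamini-Hochberg adjusted p under 0.05 over all genes); of all genes tested, 22.4% passed, 12.4% as higher and 9.97% as lower. In 50 genes every aPD1ab library lay above every young library, which was so in 11.3% of all genes. The changes were modest: those that passed ran from 0.31 to 1.08 on the log2 scale, and 1 gene passed a 2-fold threshold as well, against 4.79% of all genes.

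Genes of both subunits rose. Of the large subunit, 39 of 50 tested genes rose, with a median log2 fold change of 0.47, and of the small subunit 17 of 26, with a median of 0.50. By origin, 22 of 30 large-subunit genes with a bacterial counterpart rose (median 0.47) and 17 of 20 without one (median 0.50). In the small subunit 12 of 16 with a counterpart rose (median 0.56) and 5 of 10 without one (median 0.39).

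**Figure D2:**
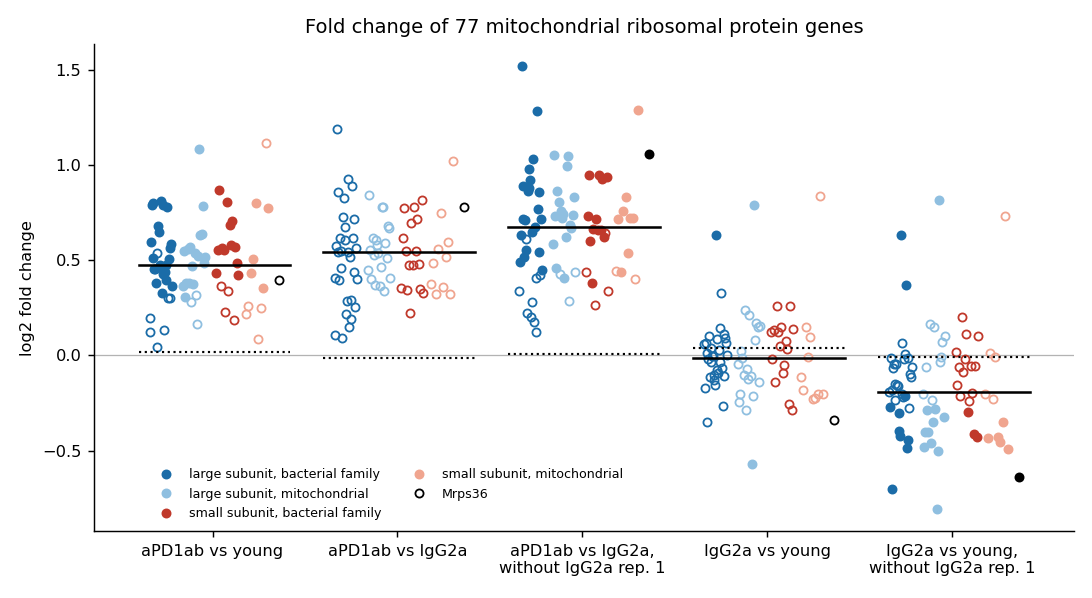
Log2 fold change (vertical axis) of the 77 tested genes in each comparison (horizontal axis), coloured by subunit and origin. Filled points passed at an edgeR adjusted p under 0.05, solid lines give the median of the 77 genes and dotted lines that of all genes tested. With aPD1ab against young mice all points lie above 0, with a median of 0.47.

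Among the large-subunit genes, Mrpl52 (ENSMUSG00000010406, GRCm38 chromosome 14, 54426909 to 54429756), a protein without bacterial counterpart, changed most. Its level was 16.8, 16, 11.1, 11.8 and 17.5 CPM in the young libraries and 28.9, 33.7, 30.5 and 29.9 CPM in the aged aPD1ab libraries, a log2 fold change of 1.08 (standard error, SE, of 0.14, with edgeR adjusted p = 0.00311). The aged IgG2a libraries lay between these, at 22.2 to 26.8 CPM, and overlapped neither group. Mrpl23 (ENSMUSG00000037772, chromosome 7, 142532686 to 142540747), whose bacterial counterpart lines the exit of the peptide tunnel, followed the same order. It was at 12.8 ± 0.679 CPM in young (SD, n = 5), 19 ± 1.08 in aged IgG2a (SD, n = 4) and 22.4 ± 2.72 in aged aPD1ab mice (SD, n = 4). Its log2 fold change against young mice was 0.81 with aPD1ab (SE 0.10, edgeR adjusted p = 0.00297).

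Mrpl28 (ENSMUSG00000024181, chromosome 17, 26123500 to 26126613), a large-subunit protein with a bacterial counterpart, was at 34.5, 30.2, 33.2, 28.2 and 31.7 CPM in young and at 43.7, 65.6, 54.3 and 53.2 CPM in aged aPD1ab libraries. The groups did not overlap, and the log2 fold change was 0.79 (SE 0.12, edgeR adjusted p = 0.00387). In the aged IgG2a libraries it was 35.2, 27.5, 26.2 and 24.3 CPM, with replicate 1 the highest. Mrpl12 (ENSMUSG00000039640, chromosome 11, 120484613 to 120489065) encodes a protein of the stalk that recruits translation factors and has also been described to bind mitochondrial RNA polymerase. It was at 27.5, 22.4, 24.6, 21.2 and 25.4 CPM in young and 34.6, 51.5, 38.9 and 41.5 CPM in aged aPD1ab libraries, a log2 fold change of 0.79 (SE 0.13, edgeR adjusted p = 0.00438). Aged IgG2a replicate 1 stood at 29.9 CPM and the other 3 at 14.1 to 14.7, which put these 3 below every other library.

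Mrpl58, which encodes a peptidyl-tRNA hydrolase that frees stalled ribosomes, rose from 15.6 ± 0.968 CPM in young (SD, n = 5) to 26.7 ± 3.8 in aged aPD1ab mice (SD, n = 4). Mrpl14, at the interface of the subunits, rose from 11.5 ± 1.28 to 19.8 ± 3.92 CPM, and Mrpl11, at the base of the stalk, from 18.7 ± 1.4 to 28 ± 2.64 CPM, over the same mice. The log2 fold changes were 0.79, 0.80 and 0.59 in that order, and the edgeR adjusted p was 0.00332 for Mrpl58, 0.00646 for Mrpl14 and 0.00473 for Mrpl11. Mrpl34 and Mrpl54, among the highest per kilobase, rose by log2 fold changes of 0.78 and 0.63 (edgeR adjusted p = 0.00415 and 0.00473). Mrpl3, whose counterpart reaches the peptidyl transferase centre, was one of the 11 tested large-subunit genes that did not pass. It ranged from 19.2 to 27.3 CPM in young and from 23.1 to 29.9 in aged aPD1ab libraries, which overlapped, with a log2 fold change of 0.14 (SE 0.12, edgeR adjusted p = 0.460). Mrpl44, with a fold like that of RNase III, had 0.28 (edgeR adjusted p = 0.110).

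In the small subunit, Mrps12 (ENSMUSG00000045948, chromosome 7, 28739641 to 28741820), a protein of the decoding centre, was at 15, 11.7, 13.6, 13.9 and 17.3 CPM in young and 22.3, 28.5, 27 and 25.8 CPM in aged aPD1ab libraries. The groups did not overlap, with a log2 fold change of 0.87 (SE 0.12, edgeR adjusted p = 0.00341). Mrps26 (ENSMUSG00000037740, chromosome 2, 130563742 to 130568695), without bacterial counterpart, was at 16.1 to 21.2 CPM in young and 28.5 to 35.9 CPM in aged aPD1ab libraries, a log2 fold change of 0.80 (SE 0.11, edgeR adjusted p = 0.00312). Mrps21, the gene with the highest level per kilobase, rose from 28.1 ± 2.52 CPM in young (SD, n = 5) to 44.8 ± 8.23 in aged aPD1ab mice (SD, n = 4), and Mrps6 from 40.2 ± 4.05 to 59.5 ± 18.3 CPM (edgeR adjusted p = 0.00707 and 0.0405). The levels of Mrps6 overlapped between the groups. Mrps15 and Mrps10 rose by log2 fold changes of 0.56 and 0.43 (edgeR adjusted p = 0.00461 and 0.0320). Mrps22, a small-subunit protein without bacterial counterpart, had 0.26 and did not pass (edgeR adjusted p = 0.159). Mrps34 had the highest log2 fold change of the 77 genes, 1.12, with a standard error of 0.48 and an edgeR adjusted p of 0.117.

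The paralogs Mrps18a, Mrps18b and Mrps18c, 3 descendants of 1 bacterial protein that sit at different places of the ribosome, differed in level and in whether they passed. Only Mrps18c was counted above among genes with a bacterial counterpart. Mrps18c rose from 5.12 ± 0.723 CPM in young (SD, n = 5) to 8.88 ± 1.96 in aged aPD1ab mice (SD, n = 4), and Mrps18a from 25.6 ± 2.17 to 35.6 ± 6.79 CPM (edgeR adjusted p = 0.0124 and 0.0219). Mrps18b was at 5.91 to 9.6 CPM in young, at 7.57, 13.1, 6.30 and 6.35 CPM in aged aPD1ab libraries, and did not pass (log2 fold change 0.22, SE 0.24, edgeR adjusted p = 0.551). Its value rested on aPD1ab replicate 2, without which the log2 fold change was -0.090. The differences between the paralogs were not tested. Mrps30 rose by 0.52 (edgeR adjusted p = 0.0111), and Mrps36, kept apart above, had 0.40 and did not pass (edgeR adjusted p = 0.0913).

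**Figure D3:**
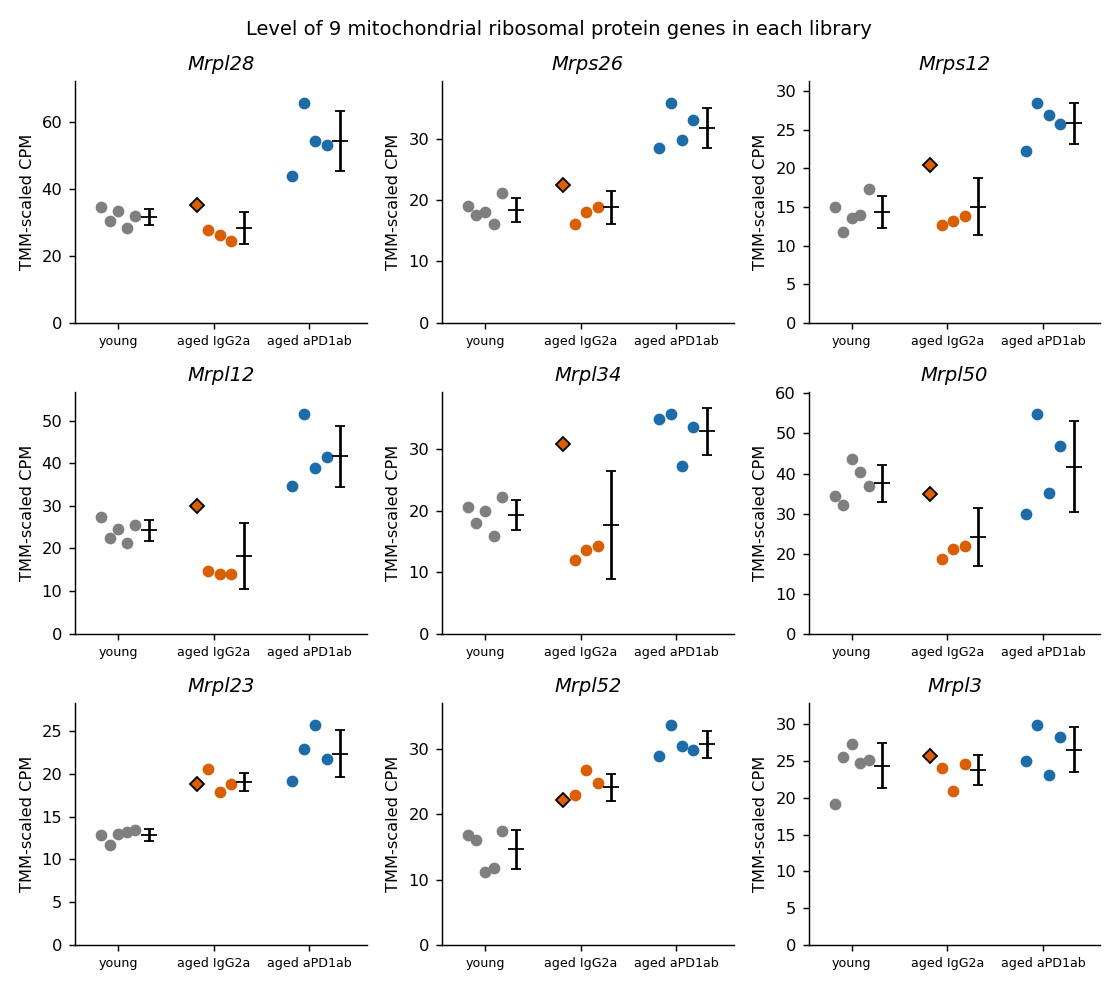
Level of 9 genes in each library, as TMM-scaled CPM (vertical axes from 0), by group; the diamond is aged IgG2a replicate 1, and bars show mean and SD. Mrpl28, Mrps26, Mrps12 and Mrpl12 are higher in all aPD1ab libraries than in any other, Mrpl12, Mrpl34 and Mrpl50 are lower in 3 aged IgG2a libraries than in any other, Mrpl23 and Mrpl52 are higher in both aged groups, and Mrpl3 overlaps between all groups.

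Since these genes moved together, their promoters were set beside each other. Promoters of 300 bases (250 before and 50 after the start site; RefSeq, GRCm38.p6) were matched for 69 of the 78 genes, which had 75 promoters in all. Both strands were searched for letters of 3 factors long associated with nuclear genes of mitochondria, namely GCGCA, any base and GCGC in a row for NRF-1, CCGGAAG for ETS proteins such as GABP, and AANATGGC for YY1. In these genes no matches of different motifs overlapped. The NRF-1 letters stood in a promoter of 18.8% of the 69 genes, against 10.4% of the 11088 tested protein-coding genes with a promoter and 5.19% of all 27025 genes with one. The shares for the ETS letters were 37.7%, 18.4% and 9.93%, and for YY1 30.4%, 9.23% and 6.96%. At least 1 of the motifs stood in 68.1% of the mitochondrial ribosomal protein genes and in 32.5% and 19.4% of the other sets. As shares of promoters rather than genes, NRF-1 letters stood in 17.3% of the 75 and 4.6% of all 32851 promoters of this length, ETS letters in 34.7% and 8.86%, and YY1 letters in 28% and 6.05%. Median GC content was 58.7% in their promoters, 60% in those of tested protein-coding genes and 52.7% in all. Of the matches, 14 of 16 for NRF-1, 28 of 31 for ETS and 18 of 24 for YY1 began between 100 bases before and 50 after the start site. The search reached to 250 bases before it, and match positions in other genes were not counted. A match is a description of letters and not of binding.

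**Figure D4:**
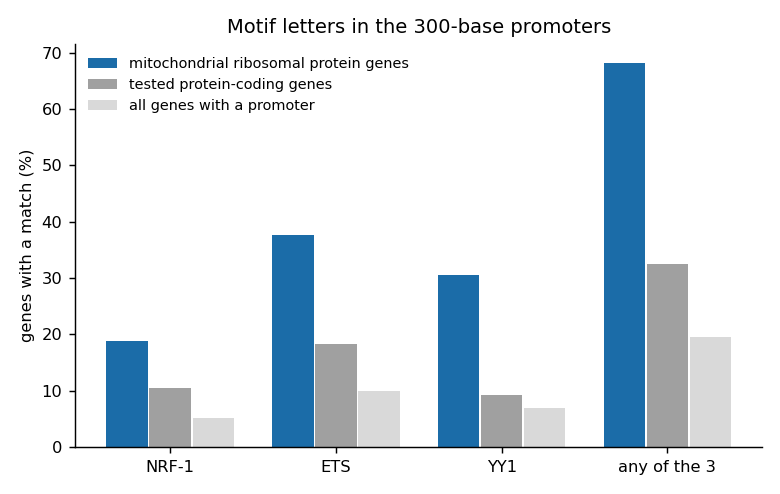
Share of genes (vertical axis, percent) with letters of each motif in a 300-base promoter, for mitochondrial ribosomal protein genes, tested protein-coding genes and all genes with a promoter. At least 1 of the 3 motifs stood in 68.1% of the first set and in 32.5% and 19.4% of the others.

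The 150 bases before the start site are shown for 4 genes that rose with aPD1ab, 1 with NRF-1 letters and the largest difference between aged groups, 1 with NRF-1 letters and the highest level per kilobase, 1 with ETS letters next to the start site, and 1 with none of the letters. Matches that reach past the printed bases are not marked: counted from 0 at the first base after them, Mrps26 also had NRF-1 letters beginning at -2 and at 4, and Mrps21 had ETS letters beginning at 18. Each reads 5′ to 3′ on the strand of the gene, and capitals mark the motif on either strand.
Mrpl12, chr11:120484487-120484636, plus strand: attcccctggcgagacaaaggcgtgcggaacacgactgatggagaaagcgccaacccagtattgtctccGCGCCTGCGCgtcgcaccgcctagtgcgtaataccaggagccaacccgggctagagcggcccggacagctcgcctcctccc
Mrps21, chr3:95871515-95871664, minus strand: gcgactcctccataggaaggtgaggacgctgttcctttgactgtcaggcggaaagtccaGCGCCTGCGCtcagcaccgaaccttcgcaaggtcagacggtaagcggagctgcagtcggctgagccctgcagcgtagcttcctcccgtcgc
Mrps26, chr2:130563607-130563756, plus strand: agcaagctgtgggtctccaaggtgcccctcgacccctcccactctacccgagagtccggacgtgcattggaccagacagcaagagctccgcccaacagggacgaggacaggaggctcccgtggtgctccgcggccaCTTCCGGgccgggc
Mrpl28, chr17:26123353-26123502, plus strand: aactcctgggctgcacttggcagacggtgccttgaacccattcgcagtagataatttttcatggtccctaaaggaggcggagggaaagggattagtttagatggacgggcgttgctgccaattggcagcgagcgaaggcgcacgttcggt

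Some of the genes lay head to head with another gene. For 18 of the 78 genes (23.1%), a protein-coding neighbour on the opposite strand started at most 1000 bases upstream of the gene's start. This was so for 6.75% of all 21596 protein-coding genes. Pairs that overlap at their starts, such as Mrps11 and Mrpl46, were not counted. Among the pairs counted was Mrps12 and Sars2, the mitochondrial seryl-tRNA synthetase. Sars2 also rose with aPD1ab against young mice (log2 fold change 0.45, SE 0.14, edgeR adjusted p = 0.0402).

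The comparison of the aged groups asked how the same genes differed between antibody and control injection at 1 age. With all 4 aged IgG2a libraries, all 77 genes were higher with aPD1ab (n = 4), with a median log2 fold change of 0.55 against -0.011 over all 15530 genes tested. None passed with edgeR, where 0% of all genes passed. The lowest adjusted p was 0.109 among the 77 genes and 0.102 among all genes. At an unadjusted p under 0.05, 64 of the 77 were higher, against 15.7% of all genes. DESeq2 called 33 of them as higher (8.95% of all genes), voom in limma with a quality weight per sample 63 (20.9%) and an edgeR fit of all 3 groups 50 (11.4%). In 34 genes every aPD1ab library lay above every aged IgG2a library, against 7.25% of all genes. Without aged IgG2a replicate 1, edgeR called 59 of the 77, all as higher, where 30.4% of all genes passed, 17.1% as higher. The median log2 fold change was then 0.68, and 68 genes did not overlap between the groups, against 24.8% of all genes. Replicate 1 stood above the other 3 aged IgG2a libraries in 70 of the 77 genes and above every young library in 62.

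Mrpl12 showed the largest difference, with a log2 fold change of 1.19 (SE 0.27, edgeR adjusted p = 0.109) with all libraries and 1.52 (SE 0.17, adjusted p = 0.00640) without replicate 1. Mrpl34 followed a like pattern, at 30.8 CPM in replicate 1, at 11.9, 13.6 and 14.3 CPM in the other aged IgG2a libraries and at 27.3 to 35.7 CPM in aged aPD1ab libraries. With replicate 1 the log2 fold change of Mrpl34 was 0.89 at an edgeR adjusted p of 0.116, and without it 1.29 at an adjusted p of 0.00640. Mrpl28, Mrps26, Mrpl14, Mrpl58 and Mrpl11 had the smallest p with all libraries. In each the 4 aPD1ab libraries lay above all 4 aged IgG2a libraries, with log2 fold changes of 0.93, 0.75, 0.86, 0.68 and 0.57 and an edgeR adjusted p of 0.109. Without replicate 1 they were 1.04, 0.83, 0.89, 0.74 and 0.63, with edgeR adjusted p between 0.00752 and 0.0141. Mrpl23 and Mrpl52 were among the 18 genes that did not pass without replicate 1, with log2 fold changes of 0.20 and 0.29 (edgeR adjusted p = 0.289 and 0.0928).

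Proximal tubule markers moved with these values. The 3 aged IgG2a libraries with the lowest mitochondrial ribosomal protein levels had the lowest proximal tubule marker levels, and aPD1ab replicate 2, the highest library in 60 of the 77 genes, had the highest. Macrophage markers also set these 3 libraries apart, at a sum of 6809 to 8438 CPM. They were at 2771 CPM in aged IgG2a replicate 1, 2138 in aPD1ab replicate 2 and at most 4857 in any aPD1ab library. A macrophage covariate was not tested. With the mean log2 CPM of the proximal tubule markers as a covariate, the median log2 fold change between the aged groups fell to 0.14 (0.022 over all genes). Of the 77 genes 14 turned lower, and edgeR called 0, as it did without the covariate. It also called 0 of all 15530 genes tested. At an unadjusted p under 0.05, 5 of the 77 were higher, and 894 of all genes passed in either direction. The marker mean was 6.16 to 6.76 in the 3 aged IgG2a libraries set apart above and 8.24 to 9.95 in aged aPD1ab libraries. Only aged IgG2a replicate 1, at 8.41, fell within the aPD1ab range, so separating covariate from group rested on this library. In the comparison with young mice, whose marker levels all lay above those of 3 of the 4 aged aPD1ab libraries, the same covariate left a median of 0.52 and 68 of the 77 genes called as higher (17.4% of all genes).

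The comparison of aged IgG2a-injected (n = 4) with young mice (n = 5) covered age and injection together, since young mice were not injected. Mitochondrial ribosomal protein genes as a set lay near no difference, with 35 higher and 42 lower and a median log2 fold change of -0.015 (0.038 over all 15953 genes). Of the 77, 3 passed (edgeR adjusted p under 0.05), against 17.4% of all genes, 2 as higher (9.05% of all genes) and 1 as lower (8.38%). Mrpl23 rose by a log2 fold change of 0.64 (SE 0.091, edgeR adjusted p = 0.00514) and Mrpl52 by 0.79 (SE 0.15, adjusted p = 0.0139). Mrpl50, a large-subunit protein without bacterial counterpart, fell by 0.57 on the log2 scale (SE 0.17, edgeR adjusted p = 0.0474). It was at 34.5, 32, 43.7, 40.5 and 36.9 CPM in young libraries, at 34.8 CPM in aged IgG2a replicate 1 and at 18.8, 21.2 and 22 CPM in the other 3. In 4 genes every aged IgG2a library lay above every young library, which was so in 4.75% of all genes. These were Mrpl23, Mrpl52, Mrps15 and Mrpl48. Mrps15 and Mrpl48 did not pass the test, with log2 fold changes of 0.26 and 0.21 and edgeR adjusted p of 0.0733 and 0.0844.

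Without replicate 1, 62 of the 77 genes were lower than in young mice, with a median of -0.19 (-0.0062 over all genes), and 27 fell and 3 rose, where 45.6% of all genes passed, 23.5% as lower and 22.1% as higher. Beside Mrpl50 (-0.81), the members that fell included Mrpl12 (-0.70, edgeR adjusted p = 0.000385), Mrps36 (-0.64, adjusted p = 0.000599), Mrpl34 (-0.49, adjusted p = 0.00915), Mrpl44 (-0.46, adjusted p = 0.0173) and Mrps22 (-0.43, adjusted p = 0.0328), all log2 fold changes. Mrpl23, Mrpl52 and Mrpl33 rose, by 0.63, 0.82 and 0.37. Under the proximal tubule covariate 0 of the 77 passed in this comparison, with medians of 0.43 with all libraries and -0.0052 without replicate 1. Of all genes, 34 of 15953 passed as higher and 6 as lower with all libraries, and 0 of 16216 without replicate 1. At an unadjusted p under 0.05, 33 of the 77 (all higher) and 2545 of all genes passed with all libraries. Without replicate 1 these were 2 and 676. The marker mean was then 6.16 to 6.76 in aged IgG2a and 8.86 to 9.47 in young libraries. Replicate 1, at 8.41, also lay below every young library. Covariate and group can therefore not be told apart, with or without replicate 1.

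The transcripts that the mitochondrial ribosome reads were measured in the same libraries. Summed over the 13 mitochondrially encoded mRNAs, the level was 192810 to 287818 CPM in young, 274309 in aged IgG2a replicate 1, 413875 to 768167 in the other 3 aged IgG2a and 175853 to 427209 in aged aPD1ab libraries. All 13 were higher in aged IgG2a than in young mice and 10 passed (9.05% of all genes did as higher), with a median log2 fold change of 1.26. With all libraries the smallest p was that of mt-Atp6, an ATP synthase subunit (2.41, edgeR adjusted p = 0.00918). Without replicate 1 all 13 passed as higher, against 22.1% of all genes, with a median of 1.46. All 13 were lower with aPD1ab than with IgG2a, with a median of -1.08, 0 passing with all libraries and 6 without replicate 1 (13.2% of all genes). At an unadjusted p under 0.05, 6 were lower with all libraries. Between aPD1ab and young mice the median was 0.23 and 0 passed (1 higher and 1 lower at an unadjusted p under 0.05). The mitochondrial rRNAs mt-Rnr1 and mt-Rnr2 had log2 fold changes of 0.78 and 0.77 in aged IgG2a against young mice (edgeR adjusted p = 0.0785 and 0.0931) and of -0.33 and -0.20 with aPD1ab against IgG2a (adjusted p = 0.428 and 0.664). Without replicate 1 both passed as higher in aged IgG2a against young mice (median 0.77, lowest edgeR adjusted p = 0.0410), where 22.1% of all genes did. Neither passed between the aged groups.

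**Figure D5:**
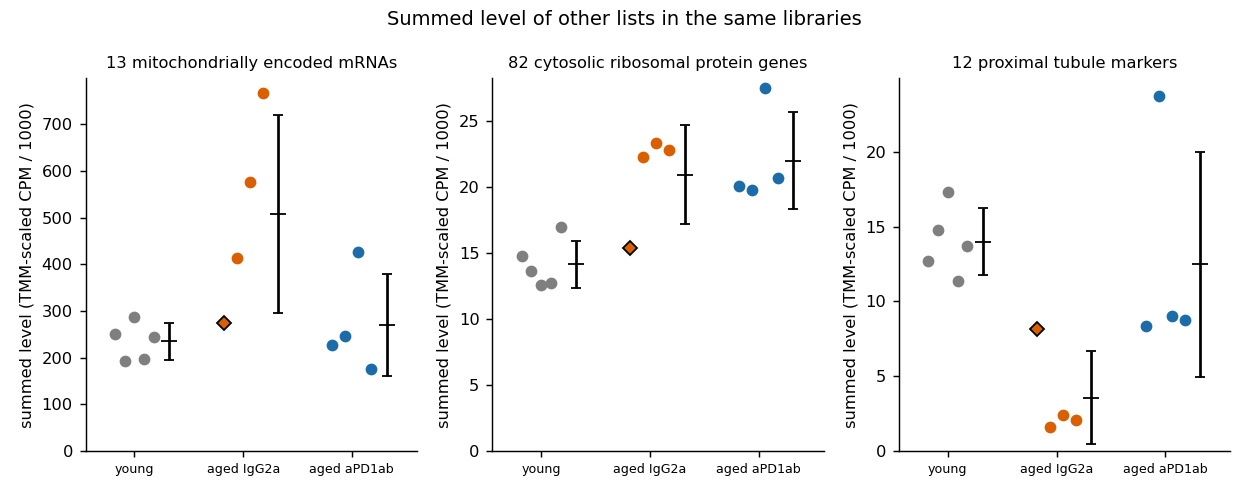
Summed level (vertical axes, TMM-scaled CPM divided by 1000) of 13 mitochondrially encoded mRNAs, 82 cytosolic ribosomal protein genes and 12 proximal tubule markers in each library, by group; the diamond is aged IgG2a replicate 1, and bars show mean and SD. The 3 other aged IgG2a libraries are the highest of their group for the mRNAs and the lowest of all libraries for the markers.

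Proteins of the cytosolic ribosome, taken as the 82 genes with symbols Rpl or Rps and a digit, were compared in the same way. Of 80 tested, 67 rose in aged IgG2a against young mice (median log2 fold change 0.64, against 9.05% of all genes) and 77 in aged aPD1ab against young mice (median 0.68, against 12.4%). Without replicate 1, 75 rose in aged IgG2a against young mice (median 0.75, against 22.1% of all genes). Between the aged groups the median was 0.057 and 0 passed (4 at an unadjusted p under 0.05, all higher), and without replicate 1 it was -0.059 and 2 rose. Many of these genes have near-identical pseudogenes, so their counts are uncertain. A difference between the cytosolic and mitochondrial lists was not tested.

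Some proteins of the mitochondrial ribosome have names that do not start with Mrp. Of 5 such subunits (Dap3, Aurkaip1, Chchd1, Ptcd3 and Gadd45gip1), 4 rose with aPD1ab against young mice, where 12.4% of all genes did. The list median log2 fold change was 0.66. Aurkaip1 was at 29.5 to 34.9 CPM in young and 45.1 to 56.3 CPM in aged aPD1ab libraries (log2 fold change 0.66, SE 0.094, edgeR adjusted p = 0.00341), and Chchd1 rose by 0.70 (adjusted p = 0.00387). Ptcd3 was at 26 to 29.9 CPM in young and 27.4 to 27.7 CPM in aged aPD1ab libraries. Between the aged groups all 5 were higher, and 0 passed with all libraries, where 0% of all genes did. Without replicate 1, 4 passed as higher, against 17.1% of all genes.

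Factors that build the ribosome or work with it were taken as 4 lists. Of 23 assembly factors and rRNA-modifying enzymes, 3 rose with aPD1ab against young mice, with a median of 0.20. This share was near the 12.4% of all genes that rose. They were Rbfa, a small-subunit assembly factor (0.53, edgeR adjusted p = 0.00806), Rcc1l (0.45, adjusted p = 0.0172) and Malsu1, which binds the large subunit during assembly (0.60, adjusted p = 0.0244). Of 15 translation factors and mRNA-binding partners, 2 rose, with a median of 0.057, again a share near 12.4%: Tsfm, the exchange factor of the elongation factor Tu (0.63, edgeR adjusted p = 0.00557), and Slirp, an mRNA-binding partner of Lrpprc (0.84, adjusted p = 0.00589). Of 20 mitochondrial aminoacyl-tRNA synthetases and amidotransferase subunits, 1 rose and 1 fell, with a median of 0.057, where 12.4% and 9.97% of all genes did. Of 6 proteins of mitochondrial transcription and replication, 0 passed, with a median of 0.094 and 1 higher at an unadjusted p under 0.05.

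Between the aged groups, 0 of these 4 lists' genes passed with all libraries, while at an unadjusted p under 0.05 6 assembly factors, 6 translation factors, 8 synthetases and 3 transcription proteins were higher. Without replicate 1, 5 of 23, 6 of 15, 9 of 20 and 2 of 6 rose, in the same order, against 17.1% of all genes. Against young mice, 0, 0, 3 and 0 of them were called as lower in aged IgG2a mice with all libraries, against 8.38% of all genes. Without replicate 1 these were 4 of 23, 7 of 15, 9 of 20 and 3 of 6, against 23.5% of all genes. The share of the assembly list lay below that of all genes, and 2 of its genes were called as higher. The elongation factor Gfm1 was at 70.4 to 79.4 CPM in young, 78.1 in aged IgG2a replicate 1, 36.3 to 39.4 in the other 3 and 64.1 to 90.5 in aged aPD1ab libraries.

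Of 9 regulators of nuclear genes for mitochondria, Esrra, an orphan nuclear receptor that works with PGC-1 coactivators, rose with aPD1ab against young mice (log2 fold change 0.56, SE 0.092, edgeR adjusted p = 0.00512) and Gabpa, the ETS subunit of GABP, fell by 0.54 on the log2 scale (SE 0.085, adjusted p = 0.00409). In all 2 of the 9 rose and 1 fell, against 12.4% and 9.97% of all genes. Between the aged groups Esrra had 0.64 (adjusted p = 0.109), and 0.80 without replicate 1 (adjusted p = 0.00761). Myc rose in aged IgG2a against young mice (0.99, edgeR adjusted p = 0.0301). Its level was 11.6 to 25 CPM in young, 22.3 to 44.1 in aged IgG2a and 26.4 to 41 in aged aPD1ab libraries, so every aPD1ab library lay above every young library too.

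Gene length moved with each of the 3 comparisons. When protein-coding genes were divided into 3 equal classes by exon length, the shortest class (up to 3299 bases) held 51 of the 77 genes. The median log2 fold change with aPD1ab against young mice over all genes of this class was 0.29, and 26.4% of them were called as higher. In the longest class these were -0.21 and 2.91%. The medians of mitochondrial ribosomal protein genes were 0.54 in the shortest class (n = 51), 0.39 in the middle class (n = 14) and 0.46 in the longest (n = 12). Between the aged groups the median over all genes was 0.16 in the shortest and -0.15 in the longest class. Without replicate 1 it was 0.21 and -0.13, and 26.4% and 11.7% of genes were called as higher. The medians of mitochondrial ribosomal protein genes from the shortest to the longest class were 0.57, 0.47 and 0.40 with all libraries and 0.72, 0.65 and 0.48 without replicate 1. In aged IgG2a against young mice the median over all genes was 0.10 in the shortest and -0.047 in the longest class. Of these genes, 14.3% and 4.56% were called as higher. Medians of mitochondrial ribosomal protein genes from the shortest to the longest class were -0.052, 0.028 and 0.039 there. Without replicate 1 the medians over all genes were 0.038 and -0.090, and those of mitochondrial ribosomal protein genes -0.21, -0.17 and -0.031. The part of gene length in the results was otherwise not tested.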

How the data were processed

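Podocyte fractions of 5 young, 5 aged IgG2a and 5 aged aPD1ab mice are listed by the labels. The authors deposited raw read counts per Ensembl gene. The processing notes name HISAT2, featureCounts, mm10 and GRCm38, and neither versions nor a strand setting are given in the sources used here. Of the columns, 13 were tied to a group by the mouse numbers that the study's principal component plot prints, and 2 columns were not used. Per the study, each library came from a single mouse. Symbols, biotypes, positions and exon lengths came from GENCODE M21 (GRCm38), which named 45229 of 46078 genes, and promoters from RefSeq (GRCm38.p6).

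Groups were fitted in pairs with edgeR 4.0.16 in R 4.3.3 (quasi-likelihood, robust, TMM, filterByExpr), with Benjamini-Hochberg adjustment over all genes tested and calls at an adjusted p under 0.05. DESeq2 1.42.0 and limma 3.58.1 served as alternatives, and the steps were tested on simulated counts. CPM levels were scaled by TMM over 13 libraries together. A floor of 3 counts corresponded to 0.0917 to 0.151 CPM, for counting error only.

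The genes, the companion lists, the marker lists and the tests were chosen with earlier results of these data known; the cytosolic ribosomal proteins and the settings that combine leaving out aged IgG2a replicate 1 with another choice were added after seeing the data. Genes named were to be, in each comparison, the 5 of smallest p and the 3 of smallest p against the sign of the median, the 4 highest and 4 lowest per kilobase, 12 chosen by role, those that failed the filter, and the 2 of smallest p of each companion list; the text gives most of these, and Ptcd3, Gfm1 and Malsu1 were added after their values were seen. Pseudogenes with the same prefix (5) were left out.

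Summed levels of markers of other cells in young, aged IgG2a and aged aPD1ab libraries were 872 to 1413, 522 to 722 and 267 to 857 CPM for podocytes, 1712 to 3228, 2771 to 8438 and 2138 to 4857 for macrophages, 55.1 to 120.2, 297 to 879 and 33.3 to 528 for T and B cells, and 627 to 936, 475 to 602 and 293 to 819 for endothelium. They were 6330 to 9037, 5610 to 13004 and 5402 to 9721 CPM for the loop of Henle and distal tubule, 209 to 593, 321 to 737 and 478 to 828 for the collecting duct, 229 to 319, 102 to 151 and 115 to 162 for mesangium and smooth muscle, and 18.3 to 112, 77.5 to 148 and 50.7 to 85.2 for red cells. The part of these cells in the results was not tested beyond the proximal tubule covariate.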

Additional observations from a re-analysis of the deposited data

Results flagged for a closer look

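In the aged IgG2a group, replicate 1 lay far from the other 3 libraries, by Dixon's test at its 95% critical value, for the summed level of mitochondrial ribosomal protein genes (1982 CPM, against 1355 to 1406 in the others). The same library was set apart for 6 named genes: Mrpl12 at 29.9 CPM, Mrpl34 at 30.8 CPM, Mrpl54 at 29.4 CPM, Mrps10 at 17.7 CPM, Mrps12 at 20.5 CPM and Mrps15 at 21.4 CPM. Among young mice, replicate 3 was set apart for Mrps21, at 32.5 CPM against 26.3 to 27.8 in the other 4. In all, 8 of 84 groups tested were set apart, 7 of them by aged IgG2a replicate 1. Chance sets apart about 5% of groups, and the values of 1 library are not independent across genes.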

How the results depend on the processing

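With aPD1ab against young mice, between 40 and 68 of the 77 genes were called as higher and 0 as lower in every alternative but the 2-fold threshold, which left 1, with medians of 0.39 to 0.54 when each library was left out in turn (40 to 60 calls). Mrps18b turned, to -0.00676 with voom and -0.090 without aged aPD1ab replicate 2 (up to 0.34 as libraries were left out in turn). Between the aged groups edgeR called 0 to 59 as libraries were left out in turn (medians 0.44 to 0.68), 0 with another normalization, without the filter and without mitochondrially encoded genes, 33 with DESeq2, 63 with voom and 50 in 1 fit of all 3 groups. With replicate 1 of aged IgG2a left out too, it was 70 in 1 fit of 3 groups, 62 with DESeq2, and 59 without mitochondrially encoded genes. The proximal tubule covariate gave medians of 0.14 and, with replicate 1 left out, 0.20, and it turned Mrps34 (-0.35 and -1.07), Mrpl3 (-0.040 and -0.23), Mrps18b (-0.23 and -0.84), Mrps36 (-0.021 and -0.00151), Mrps22 (-0.037, with replicate 1), and Mrps10 (-0.068) and Mrpl33 (-0.24) with replicate 1 left out. With replicate 1 left out, the marker means of the aged groups did not overlap, so covariate and group cannot be told apart there. In aged IgG2a against young mice, 2 to 30 genes were called as libraries were left out in turn (medians -0.19 to 0.035), 5 with DESeq2, 21 with voom, and 0 with the 2-fold threshold or the covariate. With replicate 1 left out, it was 27 in 1 fit of 3 groups and with DESeq2, 30 without mitochondrially encoded genes, and 0 with the covariate, with medians of -0.25, -0.18, -0.19 and -0.0052. The covariate gave a median of 0.43 with all libraries and turned Mrpl50 (0.15) and, with replicate 1 left out, Mrpl48 (-0.061). In this comparison the marker means of the groups did not overlap, with or without replicate 1, so covariate and group cannot be told apart. On CPM of plain library totals, which the mitochondrially encoded share moves, the log2 ratio of summed levels was -0.48 for aged IgG2a against young mice (-0.11 with TMM) and 0.83 between the aged groups (0.57 with TMM). No paired analysis was possible because the columns carry no replicate numbers shared between groups. The causes were not tested.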
